A study of Mus musculus with 9 samples.

Results

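The Toll-like receptors and their adaptors were followed in brain tissue of male BALB/c adults 2 days after an injection into the striatum on both sides. The set was named gene by gene and held Tlr1, Tlr2, Tlr3, Tlr4, Tlr7 and Tlr9, the co-receptor gene Cd14, the trafficking chaperone gene Unc93b1 and the adaptor genes Myd88 and Ticam1. All 16 probe sets whose single gene symbol was 1 of these 10 were taken, out of 45101 on the array. Mice of the HS group received BV-HSVtk, a baculovirus vector (baculoviruses infect insects), purified by high-speed centrifugation alone. Mice of the MC+HS group received the same vector after membrane chromatography with high-speed centrifugation. Each vector-injected mouse was given 100000000 viral particles in 10 µL per side. The mock group received Sf9 insect cell medium without baculovirus that was itself purified by the MC+HS procedure. HS and mock therefore differed in both vector and purification, and these cannot be told apart. The mice of all groups were immunocompetent. Each group held 3 mice with 1 array each, so n = 3 except where HS replicate 1 is omitted. The tissue around the injection sites was used whole, and a gene's level in bulk tissue cannot tell more cells from more RNA per cell.

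Values are log2(signal + 16) after each array was moved to a common median, and differences are on that scale, which understates the change of dim genes. Array medians ranged from 147 to 263 intensity units. HS replicate 1 stood apart: its median rank correlation with the other arrays was 0.798, against 0.970 to 0.981 for the others, and its Gapdh 3'/5' signal ratio was 2.00, against 0.865 to 0.932. The spread of its log2 signals was also narrower, with a standard deviation of 1.54, against 2.17 to 2.39. The median 95% confidence interval of a difference reached 0.603 to either side with all 9 arrays. Without this array it reached 0.325 where HS took part and 0.290 between MC+HS and mock. Over all 9 arrays the median difference of all tested probe sets was -0.21 for HS against mock, and without HS replicate 1 it was 0.03. Each member's test is therefore given with all 9 arrays and without HS replicate 1. Markers of striatal medium spiny neurons averaged 11.24 to 11.67 on the 8 other arrays and 9.42 on HS replicate 1.

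Toll-like receptors are membrane proteins that recognise molecules of microbes. Those at the cell surface, such as the products of Tlr1, Tlr2 and Tlr4, bind lipoproteins or lipopolysaccharide. Those of endosomes, encoded by Tlr3, Tlr7 and Tlr9, bind nucleic acids and need UNC93B1 to leave the endoplasmic reticulum. The adaptor MYD88 serves most of these receptors, while TLR3 signals through TRIF, the product of Ticam1, and both routes lead to NF-kB and interferon regulatory factors. In the brain these genes are expressed mainly by microglia, and astrocytes also carry TLR3. In mouse immune cells, TLR9 with MYD88 is known as a sensor of baculovirus DNA.

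In the fit without HS replicate 1, the members with the largest called differences from mock after either vector were Tlr3, the receptor for double-stranded RNA, Tlr2, the receptor for lipoproteins, and Myd88. Tlr3 (probe set 1422782_s_at) was 4.32-fold higher in HS than in mock and 3.31-fold higher in MC+HS than in mock. For Tlr2 the folds were 2.99 and 2.33, and for Myd88 they were 2.27 and 1.96. Tlr1 also passed, though in MC+HS not when dim probe sets were kept. A probe set of Tlr4 passed only with dim probe sets removed, by a filter that it cleared on no mock array. Cd14, Tlr7, Unc93b1 and Ticam1 did not pass. Tlr9 was too dim to be tested. With HS replicate 1 kept in the fit, no member passed in any comparison, though some did under other processing. Weights by array quality, which did not fully converge, called 9 of 10 probe sets for HS against mock (27.5% of all) and 7 for MC+HS (7.59%). Between MC+HS and HS no member passed with or without HS replicate 1. With the weights 1 was called higher and 1 lower (23.1% of all).

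Of the 16 probe sets, 10 passed the filter on dim probe sets (signal above the 40th percentile of the array on at least 3 arrays), and they cover 9 of the 10 genes. The test was limma with Benjamini-Hochberg adjustment over all tested probe sets, two-sided, called under 0.05. With all 9 arrays, 0 of the 10 tested probe sets were called for HS against mock, where 0.775% of all tested probe sets were called (0.747% as higher). For MC+HS against mock 0 of 10 were called, against 0.58% overall (0.556% as higher). At an unadjusted p under 0.05, 7 of the 10 were higher in HS than in mock (3.42% of all tested probe sets) and 8 of the 10 in MC+HS than in mock (3.14%). With arrays weighted by quality, 9 of the 10 were called for HS against mock (27.5% of all) and 7 for MC+HS against mock (7.59%), though the weights did not fully converge. Without HS replicate 1, 6 of 10 were higher in HS than in mock, against 2.97% of all tested probe sets (3.32% in either direction), and 6 of 10 were higher in MC+HS than in mock, against 2.51% (3.34% in either direction). Every HS mouse lay above every mock mouse in 5 of the 10 (4.65% of all tested probe sets), or in 9 without HS replicate 1 (22.1%), and every MC+HS mouse in 9 of 10 (8.79%). The called probe sets were those of Tlr1, Tlr2, Tlr4, Tlr3 (both) and Myd88 in each comparison, and the comparisons share the mock arrays. The probe sets 1418162_at of Tlr4 and 1422781_at of Tlr3 exceeded the 40th percentile on 0 mock arrays. They entered the test only through vector-injected arrays, so a difference in them was built into the filter. The Tlr7 probe set 1422010_at exceeded the 40th percentile on 1 mock array and also needed vector-injected arrays to enter. The counts above include it. With all 16 probe sets tested and no filter, still without HS replicate 1, 5 were called for HS against mock (1.89% of all probe sets) and 3 for MC+HS against mock (1.69%). The median difference over the 16 was then 0.48 and 0.50, against -0.04 and -0.02 over all probe sets.

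The promoter windows of Tlr2, Tlr3 and Myd88 are shown for the letters they share with motifs of the factors that Toll-like receptor and interferon signalling activates. They come from RefSeq (GRCm38.p6) and run from 250 bases before to 50 after an annotated start, with matches in capitals. The windows are chr3:83841559-83841858 for Tlr2, chr8:45410331-45410630 for Tlr3 and chr9:119339969-119340268 for Myd88, all on the minus strand and printed 5′ to 3′ along the gene. The capitals mark the consensus NF-kB motif in Tlr2 and Tlr3. In Myd88 they mark a GAS motif (TTCNNNGAA, bound by STAT factors) and an ISRE core (GAAANNGAAA, bound by interferon-activated complexes), which overlap there.
Tlr2: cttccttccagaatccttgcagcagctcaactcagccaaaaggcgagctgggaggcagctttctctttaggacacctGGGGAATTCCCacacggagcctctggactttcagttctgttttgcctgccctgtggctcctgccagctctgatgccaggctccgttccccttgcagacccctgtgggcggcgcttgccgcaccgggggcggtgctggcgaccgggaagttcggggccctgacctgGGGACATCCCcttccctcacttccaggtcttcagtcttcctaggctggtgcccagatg
Tlr3: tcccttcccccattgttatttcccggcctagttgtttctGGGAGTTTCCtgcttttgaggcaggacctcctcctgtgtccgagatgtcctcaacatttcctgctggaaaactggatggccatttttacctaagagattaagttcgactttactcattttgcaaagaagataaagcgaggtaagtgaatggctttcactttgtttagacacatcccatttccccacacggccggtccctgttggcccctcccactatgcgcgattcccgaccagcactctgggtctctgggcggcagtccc
Myd88: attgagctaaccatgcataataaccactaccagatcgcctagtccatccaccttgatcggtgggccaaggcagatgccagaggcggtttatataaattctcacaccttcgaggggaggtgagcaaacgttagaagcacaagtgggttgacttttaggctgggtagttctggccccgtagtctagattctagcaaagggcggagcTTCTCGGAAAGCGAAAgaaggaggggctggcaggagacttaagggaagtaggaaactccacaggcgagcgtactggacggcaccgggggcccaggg
Both strands were searched. In Tlr2 the NF-kB motif matched at -173 and -172, which overlap, and at -8, counted from the start site. The Tlr3 match began at -211. In Myd88 the GAS match began at -46 and the ISRE core at -40. Of 32851 promoter windows of this length, 4.51% held the NF-kB motif, 3.44% the ISRE core and 8.3% the GAS motif. The core of the myeloid factor PU.1 (GAGGAA), held by 28.3% of windows, was found in 1 window of Tlr1 and in windows of Tlr9 and Ticam1. The other Tlr1 window held a GAS motif that began at -228. In the Tlr9 and Ticam1 windows only the PU.1 core matched. A match describes letters and not binding.

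**Figure D1:**
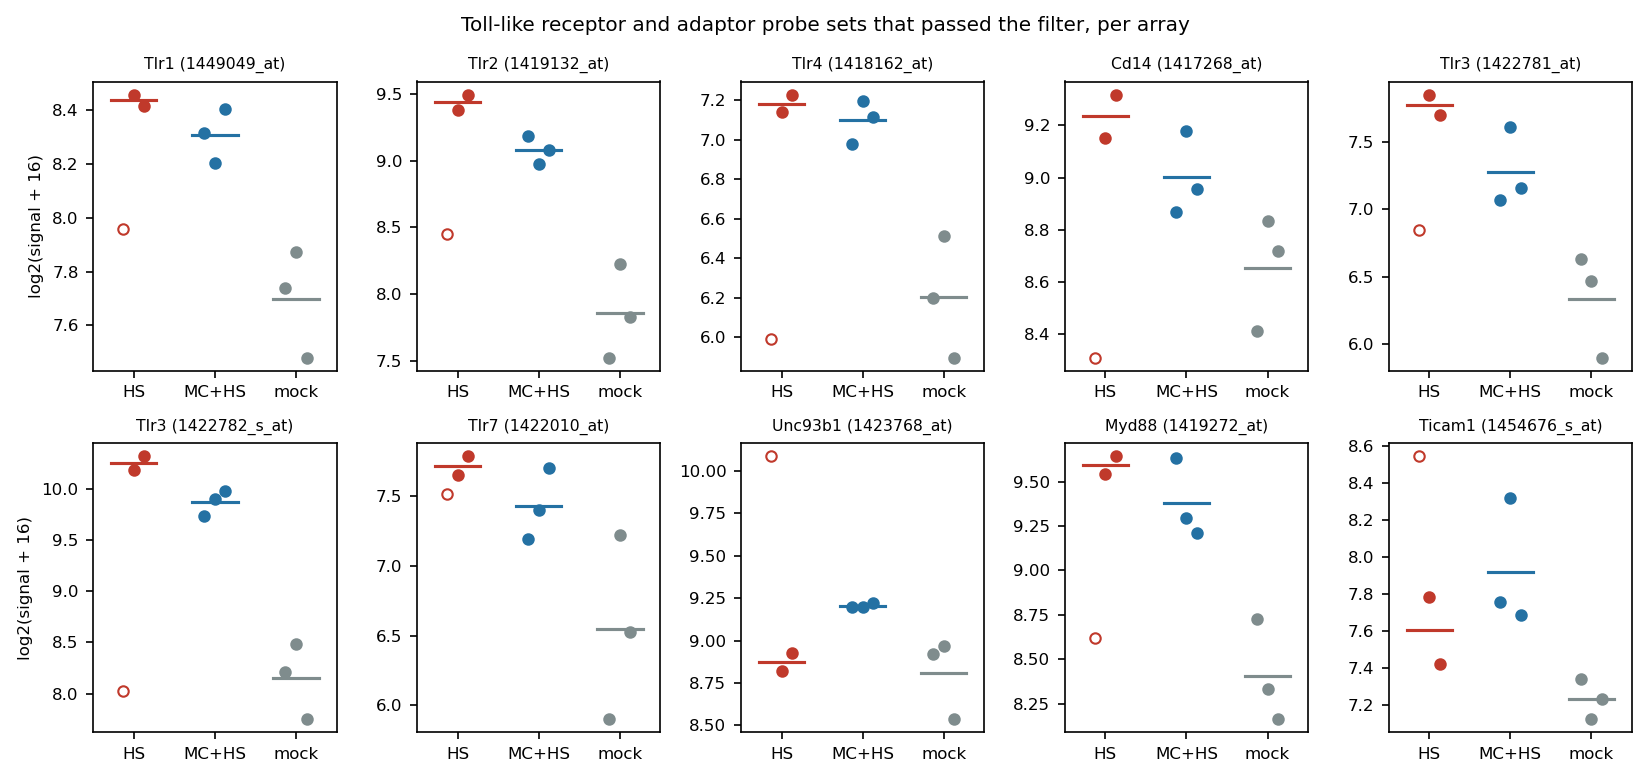
Normalized log2(signal + 16) of the 10 member probe sets that passed the filter, 1 point per array, by group. Lines are group means, and the HS mean leaves out HS replicate 1 (open circle), which read 8.03 for Tlr3 on 1422782_s_at, within the mock values, and lay above all other arrays for Unc93b1 (10.09) and Ticam1 (8.55).

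Among the receptors of the cell surface, Tlr2 showed the widest separation. Its log2 signal was 8.45, 9.38 and 9.49 in HS mice 1 to 3, 9.18, 8.98 and 9.08 in MC+HS mice, and 7.52, 8.22 and 7.83 in mock mice. All vector-injected mice lay above all mock mice, the lowest being HS replicate 1. Without that array Tlr2 was higher by 1.58 ± 0.18 (SE) in HS than in mock (limma adjusted p = 0.000495) and by 1.22 ± 0.16 in MC+HS than in mock (limma adjusted p = 0.00132). With all 9 arrays the differences were 1.25 ± 0.29 and 1.22 ± 0.29 (limma adjusted p = 0.141 and 0.178). Tlr2 kept its call without HS replicate 1 under all 15 alternatives tried with that array left out, in both comparisons with mock.

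Tlr1, whose product pairs with TLR2 to bind triacylated lipoproteins, moved less. It had 7.96, 8.46 and 8.42 in HS mice, 8.31, 8.20 and 8.40 in MC+HS mice, and 7.74, 7.87 and 7.48 in mock mice. Here too the vector-injected and mock mice did not overlap. The differences from mock without HS replicate 1 were 0.74 ± 0.14 for HS and 0.61 ± 0.13 for MC+HS (limma adjusted p = 0.0158 and 0.0261), or 1.67-fold and 1.53-fold. With no filter on dim probe sets the limma adjusted p was 0.035 for HS and 0.0552 for MC+HS, so the MC+HS call was lost. Of 15 alternatives without that array, 13 kept the HS call and 6 the MC+HS call. With HS replicate 1 included, they were 0.58 ± 0.18 and 0.61 ± 0.18 (limma adjusted p = 0.394 and 0.385).

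Tlr4, the lipopolysaccharide receptor, had 4 probe sets, of which 1418162_at was tested. It read 5.99, 7.14 and 7.23 in HS mice, 6.98, 7.20 and 7.12 in MC+HS mice, and 6.20, 6.51 and 5.90 in mock mice. HS replicate 1 lay within the mock range and the other vector-injected mice lay above it. Without that array the differences were 0.98 ± 0.22 for HS and 0.89 ± 0.20 for MC+HS (limma adjusted p = 0.0369 and 0.0335), and 7 of 15 alternatives kept each call. The filter on dim probe sets had built a difference into this probe set, and with no filter neither call remained (limma adjusted p = 0.0574 and 0.056). Over all 9 arrays they were 0.58 ± 0.33 and 0.89 ± 0.33 (limma adjusted p = 0.635 and 0.758).

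Cd14, which hands lipopolysaccharide to TLR4 and also serves other Toll-like receptors, differed least among the surface receptors. It had 8.31, 9.15 and 9.32 in HS mice, 8.87, 9.18 and 8.95 in MC+HS mice, and 8.41, 8.83 and 8.72 in mock mice. HS replicate 1 was the lowest of all arrays, and the other vector-injected mice lay just above the mock mice. Without it the differences were 0.58 ± 0.15 for HS and 0.35 ± 0.13 for MC+HS, and neither passed (limma adjusted p = 0.068 and 0.254). Fitted on 9 arrays, they were 0.27 ± 0.27 and 0.35 ± 0.27 (limma adjusted p = 0.653 and 1).

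Among the endosomal receptors, Tlr3 had the largest difference of any member. Probe set 1422782_s_at read 8.03, 10.19 and 10.32 in HS mice, 9.74, 9.91 and 9.99 in MC+HS mice, and 8.21, 8.48 and 7.75 in mock mice. The MC+HS mice and HS mice 2 and 3 were at least 1 log2 unit above every mock mouse, and HS replicate 1 lay inside the mock range. Without that array Tlr3 was higher by 2.11 ± 0.18 in HS than in mock (limma adjusted p = 9.43e-05) and by 1.73 ± 0.16 in MC+HS than in mock (limma adjusted p = 0.000211). These ranked 196th and 211th from the top among 27973 probe sets tested. Both calls held under all 15 alternatives tried without HS replicate 1. Keeping HS replicate 1, the differences were 1.37 ± 0.54 and 1.73 ± 0.54 (limma adjusted p = 0.635 and 0.48).

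The other Tlr3 probe set, 1422781_at, was too dim on every mock array to clear the filter there, so its test is no independent support. It read 6.85, 7.85 and 7.70 in HS mice, 7.07, 7.61 and 7.16 in MC+HS mice, and 6.63, 6.47 and 5.90 in mock mice. No mock mouse reached the vector-injected mice. The differences without HS replicate 1 were 1.44 ± 0.25 for HS and 0.95 ± 0.22 for MC+HS (limma adjusted p = 0.00779 and 0.0453), of which the second held under 6 of 15 alternatives. With no filter on dim probe sets the limma adjusted p was 0.0157 for HS and 0.0821 for MC+HS. With all 9 arrays they were 1.13 ± 0.31 and 0.95 ± 0.31 (limma adjusted p = 0.279 and 0.548).

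Tlr7, a sensor of single-stranded RNA, varied widely among mock mice. Its tested probe set, 1422010_at, read 7.51, 7.65 and 7.79 in HS mice, 7.19, 7.40 and 7.70 in MC+HS mice, and 5.90, 7.22 and 6.53 in mock mice. Mock replicate 2 lay inside the MC+HS range and below the HS range. The probe set exceeded the 40th percentile on 1 mock array, so it passed the filter only with the help of vector-injected arrays. The differences without HS replicate 1, 1.17 ± 0.32 for HS and 0.88 ± 0.29 for MC+HS, were of the size of those of Myd88 but did not pass (limma adjusted p = 0.0882 and 0.157). With HS replicate 1 included, they were 1.10 ± 0.31 and 0.88 ± 0.31 (limma adjusted p = 0.293 and 0.643).

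Unc93b1, which ferries the endosomal receptors, had 10.09, 8.82 and 8.93 in HS mice, 9.20, 9.20 and 9.22 in MC+HS mice, and 8.92, 8.97 and 8.54 in mock mice. HS mice 2 and 3 lay within the mock range and HS replicate 1 above all other arrays. Without HS replicate 1 the difference was 0.07 ± 0.14 for HS (95% confidence interval -0.24 to 0.37) and 0.40 ± 0.12 for MC+HS (0.13 to 0.67), and neither passed (limma adjusted p = 0.883 and 0.136). Over all 9 arrays they were 0.47 ± 0.32 and 0.40 ± 0.32 (limma adjusted p = 0.635 and 1).

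Of the adaptors, Myd88 stood above mock and Ticam1 less so. Myd88 read 8.62, 9.54 and 9.64 in HS mice, 9.63, 9.29 and 9.21 in MC+HS mice, and 8.73, 8.33 and 8.16 in mock mice. Apart from HS replicate 1, which lay inside the mock range, every vector-injected mouse was above every mock mouse. Without that array the differences were 1.18 ± 0.17 for HS and 0.97 ± 0.16 for MC+HS (limma adjusted p = 0.00262 and 0.00518). The HS call held under 14 of 15 alternatives and the MC+HS call under 15 of 15. Fitted on 9 arrays, they were 0.86 ± 0.29 and 0.97 ± 0.29 (limma adjusted p = 0.515 and 0.432).

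Ticam1, the adaptor through which TLR3 signals, had 8.55, 7.79 and 7.43 in HS mice, 7.76, 8.32 and 7.69 in MC+HS mice, and 7.34, 7.12 and 7.23 in mock mice. HS replicate 1 was again the highest array, and all vector-injected mice lay above the mock mice. Without it the differences were 0.37 ± 0.21 for HS and 0.69 ± 0.18 for MC+HS, and neither passed (limma adjusted p = 0.466 and 0.0806). Keeping HS replicate 1, they were 0.69 ± 0.28 in both comparisons (limma adjusted p = 0.635 and 0.923).

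**Figure D2:**
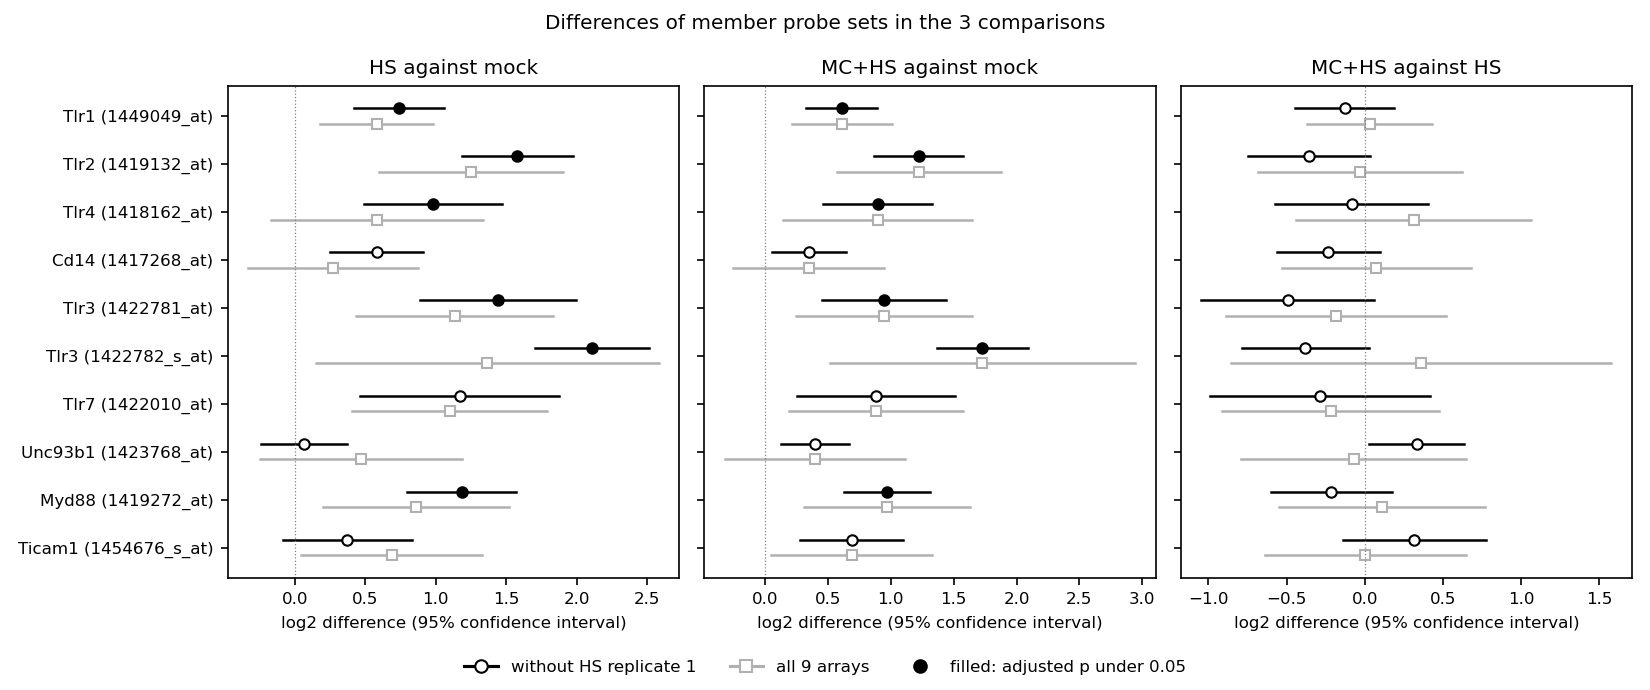
Log2 differences of the 10 tested member probe sets with 95% confidence intervals from limma for each vector preparation against mock and for MC+HS against HS. Circles leave out HS replicate 1, squares use all 9 arrays, and filled symbols passed the adjusted threshold. Filled circles appear for Tlr1, Tlr2, Tlr4, both Tlr3 probe sets and Myd88 against mock, and no symbol is filled between the vectors.

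The 6 probe sets left out as dim belonged to Tlr4 (3), Tlr7 (2) and Tlr9 (1). Tlr9 read 7.17, 5.96 and 5.56 in HS mice, 6.48, 6.18 and 6.33 in MC+HS mice, and 6.50, 6.18 and 6.16 in mock mice. It exceeded the 40th percentile on HS replicate 1 alone. Its MC+HS and mock ranges overlapped, and HS mice 2 and 3 lay below both. In the fit with no filter Tlr9 differed by -0.05 for HS against mock and 0.05 for MC+HS against mock with all 9 arrays, and by -0.52 and 0.05 without HS replicate 1. None of these was called (limma adjusted p = 0.963 and 1 with all 9 arrays, and 0.384 and 0.972 without HS replicate 1). For MC+HS against HS Tlr9 differed by 0.10 with all 9 arrays and by 0.57 without HS replicate 1. Neither was called (limma adjusted p = 0.935 and 0.58). The 3 dim Tlr4 probe sets ranged over 4.30 to 7.05 in HS mice, 4.27 to 6.60 in MC+HS mice and 4.08 to 6.13 in mock mice, and the 2 of Tlr7 over 5.85 to 6.61 in HS mice, 5.77 to 6.51 in MC+HS mice and 5.49 to 6.61 in mock mice. The dim probe sets of Tlr4 did not all point the way of 1418162_at: without HS replicate 1 they differed from mock by 0.29, -0.02 and -0.35 in HS and by 0.31, 0.12 and 0.19 in MC+HS. For the dim Tlr7 probe sets the values were 0.22 and 0.19 in HS and 0.32 and 0.02 in MC+HS. No detection calls were used, so whether these probe sets measured any transcript was not tested.

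**Figure D3:**
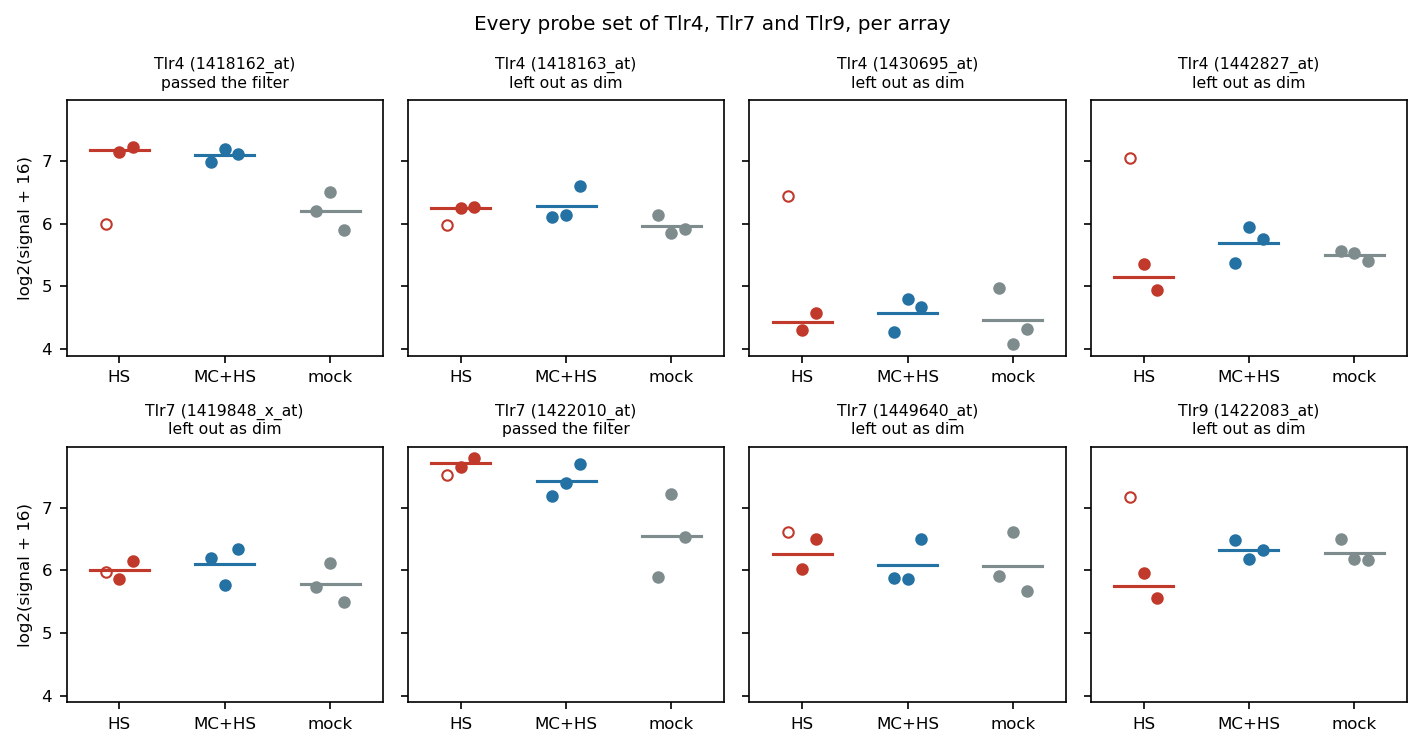
Normalized log2(signal + 16) of every probe set of Tlr4, Tlr7 and Tlr9, 1 point per array, by group. Lines are group means, and HS replicate 1 (open circle) is left out of the HS mean. Of the 4 Tlr4 and 3 Tlr7 probe sets 1 each passed the filter, 1418162_at and 1422010_at, and the Tlr9 probe set did not.

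MC+HS against HS asked whether the purification of the vector altered these genes. With all 9 arrays 0 of 10 member probe sets were called by limma (0% of all tested probe sets), and 0 had an unadjusted p under 0.05. Omitting HS replicate 1, 0 of 10 were called (0.00357% of all), and 1, Unc93b1, had an unadjusted p under 0.05. The share of all tested probe sets at that threshold was not computed, so this count is not read as a result. Unc93b1 was at 9.20, 9.20 and 9.22 in MC+HS mice and 8.82 and 8.93 in HS mice 2 and 3. Its difference was 0.33 ± 0.14 (95% confidence interval 0.03 to 0.64, limma adjusted p = 0.619).

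For Tlr2 and Tlr3 the differences were negative and did not pass. Without HS replicate 1, Tlr2 was at 9.18, 8.98 and 9.08 in MC+HS mice and at 9.38 and 9.49 in HS mice, a difference of -0.36 ± 0.18 (95% confidence interval -0.75 to 0.04, limma adjusted p = 0.694). Tlr3 differed by -0.38 ± 0.18 on 1422782_s_at (-0.79 to 0.03) and by -0.49 ± 0.25 on 1422781_at (-1.05 to 0.06), with limma adjusted p of 0.68 and 0.698. In 4 of the 10 probe sets, these 3 and that of Tlr1, the MC+HS mice all lay below HS mice 2 and 3, as they did in 16.8% of all tested probe sets. The difference was -0.21 ± 0.17 for Myd88, -0.13 ± 0.14 for Tlr1, -0.23 ± 0.15 for Cd14, -0.29 ± 0.32 for Tlr7 and -0.09 ± 0.22 for Tlr4, and it was 0.32 ± 0.21 for Ticam1. The widest of these intervals, for Tlr7, ran from -0.99 to 0.42. With HS replicate 1 included, Tlr2 differed by -0.03 ± 0.29 and Tlr3 by 0.36 ± 0.54 (1422782_s_at), so the sign for Tlr3 turned with HS replicate 1. Weighting arrays by quality called 2 of 10 (23.1% of all tested probe sets), Unc93b1 (0.38, limma adjusted p = 0.00532) and Tlr3 on 1422781_at (-0.48, limma adjusted p = 0.026).

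The rest of the pathway was described from gene lists, with 1 probe set per gene and without HS replicate 1 unless stated. Of 6 other Toll-like receptor genes 5 were on the array and 3 were tested. Omitting HS replicate 1, Tlr13, a receptor for bacterial ribosomal RNA in mice, was higher in HS than in mock (0.61 ± 0.14, limma adjusted p = 0.0426) and did not pass in MC+HS (0.38 ± 0.13, limma adjusted p = 0.175). With all 9 arrays neither passed (0.66 ± 0.14 and 0.38 ± 0.14, limma adjusted p = 0.0897 and 0.692). Tlr6, another partner of TLR2, differed by 0.18 ± 0.23 and 0.12 ± 0.21, and the flagellin receptor gene Tlr5 by -0.29 ± 0.29 and -0.02 ± 0.26. Among other co-receptors, chaperones and endosomal proteases 0 of 11 tested genes passed in either comparison with mock, with median differences of 0.27 and 0.23, against 0.03 and -0.02 over all probe sets. At an unadjusted p under 0.05, 5 were higher in HS, and 4 were higher and 1 lower in MC+HS. The share of all tested probe sets at that threshold was not computed without HS replicate 1. On 9 arrays 0 of 12 passed by limma in either comparison. At a limma unadjusted p under 0.05 on those arrays, 1 was higher in HS (3.42% of all tested probe sets) and 0 in MC+HS (3.14%). Of the 13 genes of this list on the array, 2 were dim on all mock arrays. Where tested, they entered only through vector-injected arrays. The chaperone gene Hsp90b1 was at 0.33 ± 0.09 in HS and 0.24 ± 0.08 in MC+HS, and the cathepsin genes Ctss, Ctsb and Ctsl, whose products cut endosomal receptors, were at 0.55 ± 0.16, 0.32 ± 0.10 and 0.25 ± 0.10 in HS and at 0.41 ± 0.15, 0.21 ± 0.09 and 0.18 ± 0.09 in MC+HS.

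Of 15 tested genes of signalling below the adaptors, 1 rose and 0 fell in each comparison with mock. It was Irf7, the interferon regulatory factor that acts below MYD88 in interferon production, at 2.71 ± 0.35 in HS and 2.56 ± 0.31 in MC+HS (limma adjusted p = 0.00115 and 0.000975). Over all 9 arrays Irf7 passed as well, at 2.64 ± 0.39 and 2.56 ± 0.39 (limma adjusted p = 0.0185 and 0.0281). The sorting adaptor gene Tirap differed by 0.47 ± 0.14 and 0.41 ± 0.12, the TAK1-binding gene Tab2 by 0.31 ± 0.10 and 0.18 ± 0.09, and Irf3, the factor below TRIF, by 0.27 ± 0.10 and 0.18 ± 0.09, all without passing. The list's median was 0.21 in HS and 0.07 in MC+HS. Of 8 tested inhibitors of the pathway, Tnfaip3, which encodes the ubiquitin-editing protein A20, rose in HS (0.84 ± 0.14) and in MC+HS (0.54 ± 0.13), with limma adjusted p of 0.00619 and 0.043. Socs1, an inhibitor of cytokine signalling, rose in HS (1.15 ± 0.22, limma adjusted p = 0.0157) and was at 0.59 ± 0.20 in MC+HS (limma adjusted p = 0.179). Of the 10 inhibitor genes on the array, 3 were dim on all mock arrays. Such a gene, where tested, entered only through vector-injected arrays, and a difference in it was built into the filter. Tnfaip3 or Socs1 may be among them. The list's median was 0.34 in HS and 0.29 in MC+HS, and Tnip1 and Nfkbia, at 0.33 ± 0.11 and 0.36 ± 0.12 in HS and at 0.38 ± 0.10 and 0.23 ± 0.11 in MC+HS, did not pass. Fitted on 9 arrays, 0 inhibitors passed by limma. At a limma unadjusted p under 0.05, 2 were then higher in HS (3.42% of all tested probe sets) and 1 in MC+HS (3.14%). Between MC+HS and HS 0 genes of these 4 lists passed in either limma fit. At an unadjusted p under 0.05 only Socs1 was lower, without HS replicate 1 (-0.56 ± 0.22). The share of all tested probe sets at that threshold was not computed for this comparison.

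Markers of several cell types of the brain and blood also differed from mock, and their counts are given without HS replicate 1 first. Of all tested probe sets, 3.32% were then called for HS against mock and 3.34% for MC+HS against mock (2.97% and 2.51% as higher). With all 9 arrays the shares were 0.775% and 0.58%. The mean log2 level of 9 markers of infiltrating monocytes and macrophages was 7.84, 8.88 and 8.96 in HS mice, 8.66 to 8.78 in MC+HS mice and 7.70 to 8.30 in mock mice, the low HS value being replicate 1. Without that array Chil3 and Plac8 were the 2 of these 9 that passed (3.50 ± 0.21 and 3.21 ± 0.49 in HS, 2.97 ± 0.19 and 2.84 ± 0.43 in MC+HS). Chil3 also passed over all 9 arrays in both comparisons (limma adjusted p = 0.00324 and 0.00649), and Plac8 did in neither (limma adjusted p = 0.454 and 0.284). The macrophage mannose receptor gene Mrc1 pointed down without passing (-0.83 ± 0.22 in HS and -0.79 ± 0.20 in MC+HS, limma adjusted p = 0.0836 and 0.0637). Of the 9 markers, 2 were dim on all mock arrays and entered the test only through vector-injected arrays. A difference in those 2 was built into the filter, and Chil3 or Plac8 may be among them.

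The 11 microglia markers averaged 8.47, 9.29 and 9.32 in HS mice, 9.09 to 9.45 in MC+HS mice and 9.47 to 9.94 in mock mice. Without HS replicate 1, 4 of them fell in each comparison, among them Gpr34 (-1.15 ± 0.15 in HS and -1.03 ± 0.13 in MC+HS) and Siglech (-0.97 ± 0.16 and -1.09 ± 0.14). The list did not move as one. Aif1, which encodes IBA1, was at 0.83 ± 0.25 and 0.72 ± 0.22, and the integrin gene Itgam was at 0.70 ± 0.22 and 0.50 ± 0.20, none of them passing (limma adjusted p = 0.122 and 0.135 for Aif1, 0.144 and 0.258 for Itgam). Keeping HS replicate 1, 1 marker fell in HS and 2 in MC+HS.

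The 4 tested neutrophil markers averaged 7.62 to 8.42 in HS mice, 7.70 to 7.96 in MC+HS mice and 7.02 to 7.19 in mock mice, and 6 of the 8 on the array were dim on all mock arrays. Without HS replicate 1, 2 of the 4 rose in each comparison, S100a8 (2.20 ± 0.28 in HS and 1.27 ± 0.25 in MC+HS) and S100a9 (2.47 ± 0.18 and 1.47 ± 0.16). Csf3r did not pass (0.51 and 0.44), and Ltf pointed down without passing (-0.30 and -0.14). Over all 9 arrays the same 2 rose in HS and S100a9 alone in MC+HS. The 5 NK cell markers averaged 7.56 to 8.62 in HS mice, 7.63 to 8.32 in MC+HS mice and 6.06 to 6.27 in mock mice. Of the 6 on the array 4 were dim on all mock arrays. Such a neutrophil or NK cell marker, where tested, entered only through vector-injected arrays. A difference in it was built into the filter. Without HS replicate 1, 3 of the 5 NK cell markers rose in each comparison, the granzyme gene Gzmb by 5.47 ± 0.33 in HS and 4.44 ± 0.30 in MC+HS. The full fit of 9 arrays left 2 in each, since Nkg7 no longer passed (limma adjusted p = 0.153 and 0.193). The perforin gene Prf1 was at -0.23 ± 0.14 and -0.21 ± 0.13 without HS replicate 1 and passed in neither comparison (limma adjusted p = 0.537 and 0.516). Mrc1, Aif1, Itgam and Prf1 were picked for mention after their values were seen.

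Astrocyte markers averaged 10.08, 12.18 and 12.36 in HS mice, 12.02 to 12.23 in MC+HS mice and 11.62 to 11.95 in mock mice. Of the 6, 3 rose in HS and 2 in MC+HS without HS replicate 1, among them Gfap (1.47 ± 0.27 in HS and 1.28 ± 0.24 in MC+HS). In the fit of 9 arrays 0 of 6 passed by limma in either comparison, 0 had an unadjusted p under 0.05, and Gfap had a limma adjusted p of 0.635 and 1. Of 6 endothelial markers, 2 rose in each comparison without HS replicate 1. They were the claudin gene Cldn5 (1.13 ± 0.12 in HS and 0.96 ± 0.11 in MC+HS) and the cadherin gene Cdh5 (0.84 ± 0.18 and 0.86 ± 0.16), and the list's median was 0.65 and 0.46. Among endothelial markers 0 passed by limma over all 9 arrays. At a limma unadjusted p under 0.05, 1 was then higher in HS (3.42% of all tested probe sets) and 3 in MC+HS (3.14%). Of 4 tested dendritic cell markers only Bst2, which interferon also induces, rose without HS replicate 1 (3.26 ± 0.54 in HS and 3.18 ± 0.48 in MC+HS), and over all 9 arrays it did not pass (limma adjusted p = 0.543 and 0.253). For T cells and B cells, 3 and 1 markers were tested and 0 passed by limma in either comparison with mock, where 0 also had an unadjusted p under 0.05. The part of any of these cells in the differences of Tlr2, Tlr3 or Myd88 was not tested.

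**Figure D4:**
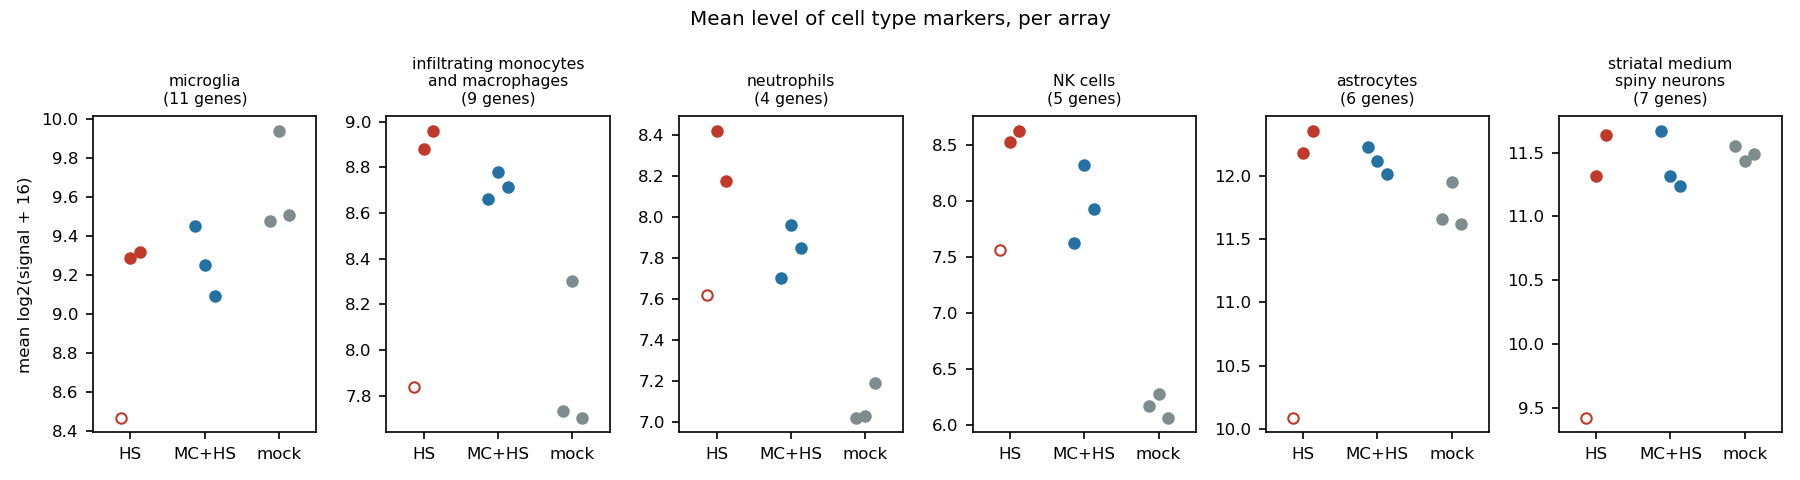
Mean log2(signal + 16) of the measured markers of 6 cell types, 1 point per array, by group, with HS replicate 1 as an open circle. Monocyte, neutrophil and NK cell markers lay higher in vector-injected mice than in mock mice except for monocyte markers of HS replicate 1, at 7.84, and microglia markers lay lower.

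The genes whose levels followed the members most closely were sought over the 8 arrays other than HS replicate 1, as a description of patterns in which all arrays share the split between vector and mock. For Tlr2 they were Lgals9 (r = 0.997), the chemokine gene Cxcl10 (r = 0.993) and the interferon-induced exonuclease gene Isg20 (r = 0.992). The Tlr3 pattern was closest to Irgm2, an interferon-induced GTPase gene (r = 0.997), Mgst1 (r = 0.996) and AW011738 (r = 0.996). Tlr4 was nearest to Ptprc, which encodes the leukocyte antigen CD45 (r = 0.996), Ms4a6c (r = 0.996) and Ifi207 (r = 0.995). Tlr1 lay closest to Glipr1 (r = 0.987), Lcn2 (r = 0.984) and Ifitm2 (r = 0.982), and Myd88 to Dcp2 (r = 0.991), Ano6 (r = 0.988) and the stress sensor gene Ern1 (r = 0.988). Lcn2, the lipocalin of inflamed tissue, was itself 4.13 log2 units higher in HS than in mock, far more than Tlr1.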

How the data were processed

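Biotin-labelled cRNA of 9 mice, made from 5 µg of total RNA per the labels' protocols, was hybridized to 1 array each. The deposited values are linear intensities, 1 per probe set. GCOS 1.4.0.036 is named in the submitters' processing notes, while the summary and scaling steps are not given there. The platform annotation gave 1 symbol to 34945 probe sets, several to 932. The 64 control probe sets were removed and 28257 passed the filter (27973 without HS replicate 1). Values were turned into log2(signal + 16) and moved to a common median. Fits used limma 3.58.1 in R 4.3.3 (statmod 1.5.0 for the block) with an intensity trend and the group as the only term, on all 9 arrays, and were checked on simulated data. SE are from these fits. The labels call the replicates biological, and each was taken as a separate mouse. The named genes were all members, up to 4 genes per pathway list with the smallest p for HS against mock without HS replicate 1, and the 3 genes with the closest pattern to each called member. For other genes the probe set with the highest mean stood for the gene. Promoter windows are from RefSeq (GRCm38.p6), where 6 of the 10 members had one that could be shown. Cell type lists were described by level and by call. The members, lists and rules were chosen with earlier results of these data known. Alternatives were other pseudocounts, filters, scalings, weights, fits and left-out arrays. Those combined with leaving out HS replicate 1 were chosen after seeing the data. P-values rest on a spread pooled over the groups of 3 mice, with fewer HS mice without HS replicate 1, and moderated by limma across probe sets. The number of arrays limits the precision.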

Additional observations from a re-analysis of the deposited data

How the results depend on the processing

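With all 9 arrays, the number of member probe sets called was 0 in each comparison. For HS against mock it became 2 with quantile normalization and 9 with array quality weights, and it ranged from 0 to 6 when each array was left out, with 6 called without HS replicate 1. For MC+HS against mock it became 1 with quantile normalization, 7 with array quality weights and 3 with only the 6 arrays compared, and 0 to 6 when each array was left out, again 6 without HS replicate 1. MC+HS against HS gave 2 with array quality weights and 0 when any array was left out. With the replicate number as a block the counts stayed at 0, 0 and 0. Same-numbered arrays of different groups had correlations of deviations between -0.17 and 0.29 and the best match was the own number in 5 of 18 cases, so the numbers were not taken as pairs. Pseudocounts of 1 and 64, other filters, unscaled signals and no intensity trend left the counts at 0.

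With HS replicate 1 left out, 6 probe sets were called against mock for each vector. Leaving out a further array gave 2 to 8 for HS, lowest without HS replicate 3 (2) and HS replicate 2 (3), where the lone HS array was assumed to vary like the other groups. It gave 3 to 6 for MC+HS, with 3 without HS replicate 2, HS replicate 3, MC+HS replicate 2, MC+HS replicate 3 or mock replicate 3. With no filter MC+HS gave 3. The replicate block gave 5 and 6. For MC+HS against HS all of these gave 0. Over all tested probe sets, 219 were called for HS against mock and 164 for MC+HS against mock with all 9 arrays, against 930 and 934 without HS replicate 1. The cause of these changes was not tested.

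Directions turned mostly in MC+HS against HS with all 9 arrays, where most differences were near 0. Exceptions were Tlr3 on 1422782_s_at (0.36 ± 0.54) and Tlr4 (0.31 ± 0.33), which turned to -0.38 and -0.0853 without HS replicate 1. Quantile normalization gave -0.0801 for Tlr1, -0.12 for Cd14, -0.15 for Myd88 and -0.28 for Ticam1. Unscaled signals gave -0.24, -0.20, -0.16 and -0.27 for the same genes. Array quality weights gave -0.16 for Tlr1, -0.0008 for Tlr4, -0.10 for Cd14, -0.28 for Tlr3 (1422782_s_at), 0.38 for Unc93b1 and -0.23 for Myd88, and, in HS against mock, -0.0558 for Unc93b1. A pseudocount of 64 gave -0.0035 for Ticam1. Leaving out each array in turn, MC+HS against HS ranged from -0.13 to 0.12 for Tlr1, -0.36 to 0.16 for Tlr2, -0.0853 to 0.53 for Tlr4, -0.23 to 0.27 for Cd14, -0.49 to 0.0077 for Tlr3 on 1422781_at, -0.38 to 0.77 on 1422782_s_at, -0.30 to 0.33 for Unc93b1, -0.21 to 0.30 for Myd88 and -0.25 to 0.32 for Ticam1. With HS replicate 1 left out, unscaled signals gave -0.0800 for Unc93b1 and -0.0965 for Ticam1 in MC+HS against HS. Unc93b1 in HS against mock was then -0.0197 with array quality weights and ranged from -0.0705 to 0.15 over the further arrays left out.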

Other observations

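HS replicate 1 gave extreme values for several members. Of the 16 probe sets, it was the highest of the 9 arrays in 5 (Ticam1, Unc93b1, Tlr9 and the Tlr4 probe sets 1430695_at and 1442827_at), of which 3 had been left out as dim, and the lowest in 1 (Cd14). The Tlr4 probe set 1442827_at read 7.05 there, against 4.95 to 5.95 on the other arrays. How often this array was highest or lowest over all probe sets was not computed, so these counts describe no trait of the members. Over all its probe sets the log2 signals had a standard deviation of 1.54, against 2.17 to 2.39 on the other arrays.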
